A study of Drosophila melanogaster with 48 samples.

Results

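A set of 40 cell cycle and DNA replication genes was followed through 24 groups of cells sorted from Drosophila embryos. The set is a list by gene function. Its rule uses no measured value, but it was proposed with earlier results of these data known. Its expression was taken as the sum over the transcripts of each gene in each library. It holds 40 of the 17257 genes quantified, and all 40 passed the filter on low counts and were tested. By role, 9 members act in G1 or at the entry into S phase, 12 license origins or work at the replication fork, 6 are mitotic cyclins, Cdk1 or Cdc25 phosphatases, 4 control anaphase through the anaphase-promoting complex, 5 are mitotic kinases or spindle checkpoint genes, and 4 build the centromere, spindle or centrosome. None of the 40 shares exon sequence with another gene on the same strand. In the Ensembl annotation of the BDGP6 assembly, stg (FBgn0003525) lies on chromosome arm 3R between positions 29251826 and 29255800, CycE (FBgn0010382) on 2L between 15727581 and 15748150, CycA (FBgn0000404) on 3L between 11826719 and 11833578, E2f1 (FBgn0011766) on 3R between 21620304 and 21660871 and Mcm5 (FBgn0017577) on 3R between 10788524 and 10791150.

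The study sorted formaldehyde-fixed embryonic cells by a marker and sequenced total RNA from the positive and the negative cells of each sort. The Ind sort (intermediate neurogenic column) and the Vnd sort (ventral column) used fluorescent reporters driven by an enhancer, whereas the Pros sort (neuroblasts and ganglion mother cells), the Elav sort (neurons) and the Repo sort (glia) used antibodies against the endogenous protein. Embryos aged 4-6 h and 6-8 h gave the Ind, Vnd and Pros cells, and those aged 6-8 h, 8-10 h and 18-22 h gave the Elav and Repo cells. Each of the 24 groups had 2 replicate libraries, which the study describes as biological duplicates, so every SD below rests on n = 2.

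All embryos were grown at one temperature in the y1 w1118 background, and no gene of the list was mutated. The carrier line differed between sorts. Ind cells came from ind_1.4::dsRed embryos at 4-6 h and from ind_1.4::GFP embryos at 6-8 h. Vnd cells came from vnd_743::dsRed embryos at both times, and Pros cells from vnd-lexA/VC:FNLDD embryos at both times. Elav cells came from ind_1.4::GFP embryos (replicate 1) and yw embryos (replicate 2) at 6-8 h, from yw embryos at 8-10 h and from vnd-lexA/VC:FNLDD embryos at 18-22 h. Repo cells came from ind_1.4::GFP embryos at 6-8 h and from vnd-lexA/VC:FNLDD embryos at 8-10 h and 18-22 h. An Ind- or Vnd-positive cell is a cell with enough of a fluorescent protein, and the negative cells of each sort are all remaining cells of the embryo, other neural cells included.

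As background, a cell commits to division when Cyclin E and Cdk2 trigger S phase, with the E2F and Dp factors switching on replication genes and Rbf holding them back. Origins are licensed by the origin recognition complex, Cdt1 (dup in the fly) and the Mcm helicase, and mitosis follows when String, a Cdc25 phosphatase, activates Cdk1 with its cyclins A, B and B3. Embryonic neuroblasts divide repeatedly, each ganglion mother cell divides once more, and its daughters leave the cycle as neurons or glia, aided by Dacapo, an inhibitor of Cyclin E and Cdk2.

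Total estimated reads per library ranged between 18120862 and 113452420. By the labels, replicate number and shared line paired the libraries only in the 6-8 h Elav sort. The genes the sorts are named after were higher in the positive cells in all 12 sorts, by 1.68 (vnd at 4-6 h) to 7.86 (repo at 6-8 h) on the log2 scale. Of 10 neuroblast markers, 8 were higher in Pros-positive cells at both times, 6 in Ind-positive cells at both times, and 1 and 0 in Vnd-positive cells at 4-6 h and 6-8 h. The Elav sort had 11 of 11 neuron markers higher at 6-8 h, 10 at 8-10 h and 11 at 18-22 h, and 8, 7 and 9 of 10 glia markers were higher in Repo-positive cells at 6-8 h, 8-10 h and 18-22 h. Odorant and gustatory receptor genes, which embryonic cells should hardly express, served as a background level. Their median per library lay between 0.0203 and 20.7 TPM (a level corrected for gene length and scaled to the same total in every library) and often differed between replicates of one group, so it is given beside the low genes it moved with. The sorted populations also shared markers. At 6-8 h neuroblast markers summed to 2660 and 2600 TPM in Elav-positive cells, against 702 and 713 TPM in Elav-negative cells. Neuron markers summed to 2260 and 1900 TPM in Pros-positive cells at 6-8 h, against 409 and 336 TPM in Pros-negative cells.

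Taken over the 40 genes, the typical level in marker-positive cells was high in the columns and the neuroblast lineage, lower in neurons and glia of the same age, and lowest before hatching. The median over the members was 112 ± 12.6 TPM in Ind-positive cells at 4-6 h and 100 ± 1.82 TPM at 6-8 h (SD, n = 2 here and below). It was 72.1 ± 3.14 and 87.5 ± 3.02 TPM in Vnd-positive cells, and 99.6 ± 0.592 and 108 ± 3.87 TPM in Pros-positive cells at the same times. In Elav-positive cells it was 42.7 ± 2.22 TPM at 6-8 h, 35.7 ± 5.95 TPM at 8-10 h and 13.7 ± 1.83 TPM at 18-22 h. Repo-positive cells held 48.4 ± 0.825, 49.9 ± 7.02 and 11.2 ± 2.29 TPM at those times. A high level was not particular to the columns and the neuroblast lineage. At 4-6 h the Ind-, Vnd- and Pros-negative cells held 88.6 ± 4.36, 81.5 ± 0.637 and 61.6 ± 1.17 TPM. At 6-8 h they held 90.5 ± 3.02, 79.4 ± 4.11 and 87.5 ± 4.69 TPM. Elav- and Repo-negative cells at 6-8 h held 85.9 ± 23.8 and 98.2 ± 1.75 TPM. These are bulk samples, so fewer dividing cells and less RNA per dividing cell cannot be told apart.

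**Figure D1:**
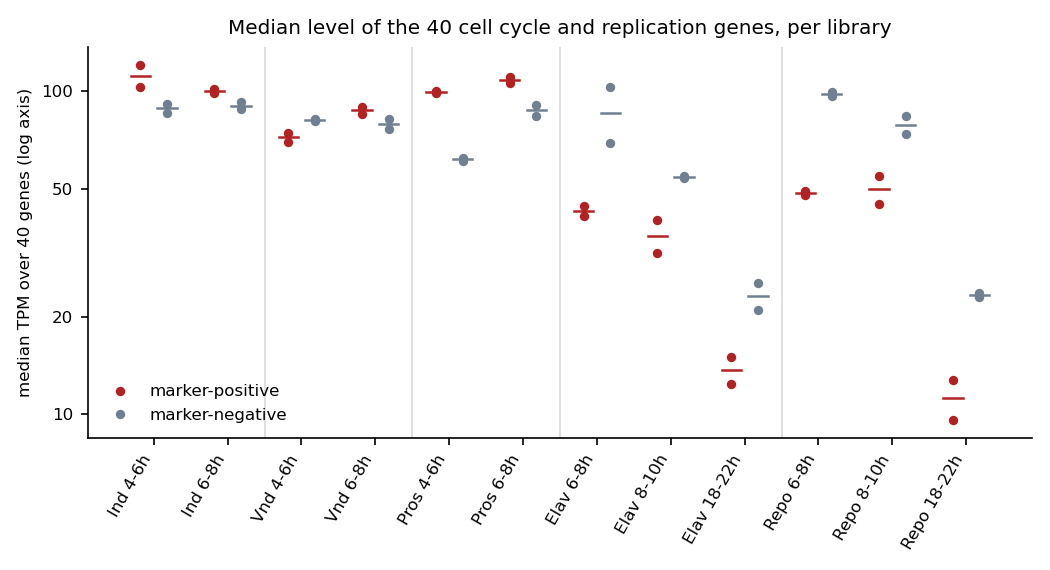
Median TPM over the 40 members in each of the 48 libraries (vertical axis, log scale), with the positive and the negative libraries of the 12 sorts side by side along the horizontal axis and a short line at each group mean. The 2 Elav-positive groups up to 10 h and the 2 Repo-positive groups up to 10 h lie between the column and neuroblast groups and the 18-22 h groups, which are the lowest.

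Individual members followed this shared course to different degrees. The highest group mean was in Ind-, Vnd- or Pros-positive cells for 26 of the 40 genes, 12 of them in Ind-positive cells at 6-8 h and 7 in Pros-positive cells at 6-8 h. The lowest group mean was at 18-22 h for 39 genes, 29 of them in Repo-positive cells. As a description over the 24 group means, CycB3 lay closest to the median profile of the other members (r = 0.982), followed by polo (0.979) and CycA (0.978), and twe was the farthest from it (0.119), followed by fzr (0.436), Bub1 (0.472) and cnn (0.529). The groups share libraries, lines and depth, so these correlations are given without a test.

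The first comparison asked whether the columns carry more or less cell cycle RNA than the remaining cells of the same embryos. A gene was called when its adjusted p in edgeR was below 0.05 and its log2 fold change was beyond 1 in either direction. At 4-6 h, Ind-positive cells differed from Ind-negative cells in 2 members. dap, the Cyclin E and Cdk2 inhibitor, had 439 and 441 TPM in Ind-positive cells, against 129 and 105 TPM in Ind-negative cells. The groups were well separated, and dap was higher by 1.72 (log2, SE 0.51, adjusted p = 0.045). twe, the Cdc25 phosphatase of the germ line, had 3.65 and 4.86 TPM in Ind-positive cells, against 16.2 and 15.7 TPM in Ind-negative cells. Its fold change was -2.07 (SE 0.45, adjusted p = 0.00409). Germ cell markers moved with it: their summed level was 167 and 144 TPM in Ind-positive cells, against 377 and 397 TPM in Ind-negative cells, 4 of 7 were lower, and their part in the twe value was not tested. Over all tested genes, 1.16% were called higher and 3.33% lower in this sort, beside 1 and 1 of 40 members. The median log2 fold change was 0.06 over the members and -0.06 over all genes. The dap call was lost without any one of the 4 libraries.

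The other members chosen to stand for the roles lay close together in Ind-positive and Ind-negative cells at 4-6 h. CycE had 240 and 262 TPM in Ind-positive cells, against 224 and 238 TPM in Ind-negative cells. PCNA, the sliding clamp of the replication fork, had 364 and 356 TPM, against 269 and 299 TPM. Mcm5, a subunit of the replicative helicase, had 90.4 and 97.1 TPM, against 78.5 and 83.1 TPM. Each of these 3 genes was slightly higher in the Ind-positive cells in TPM without passing the test. With 1 library left out, the log2 fold change was -0.2 to 0.14 for CycE, 0.04 to 0.34 for PCNA and -0.12 to 0.14 for Mcm5. stg, the Cdc25 phosphatase that times embryonic mitoses, had 454 and 546 TPM in Ind-positive cells, against 402 and 418 TPM in Ind-negative cells. CycA had 355 and 391 TPM, against 298 and 309 TPM, while CycB had 406 and 401 TPM, against 568 and 578 TPM. E2f1, the activating E2F factor, had 177 and 178 TPM, against 123 and 121 TPM. The mitotic cyclins therefore lay on opposite sides, CycA above and CycB below, and neither was called.

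At 6-8 h 1 of the 12 replication genes was called higher in Ind-positive cells. RnrL, the large subunit of ribonucleotide reductase, which makes the precursors of DNA, had 52.6 and 47.7 TPM in Ind-positive cells, against 23.3 and 18.5 TPM in Ind-negative cells. It was higher by 1.35 (log2, SE 0.26, adjusted p = 0.00166) and was the 1 member of 40 called, beside 0.684% of all genes called higher. PCNA had 414 and 382 TPM in Ind-positive cells, against 181 and 164 TPM in Ind-negative cells, with a fold change of 1.33 (SE 0.47) and an adjusted p of 0.203. Both PCNA libraries of the positive cells were above both of the negative cells, and 31 of 40 members showed that separation, beside 21.6% of all genes. The median was 0.50 over the members (35 positive) and 0.13 over all genes. 10 members had an unadjusted p under 0.05, beside 1459 of the 17109 genes tested. Median-of-ratios scaling gave 4 calls in this sort, beside 207 of 17109 genes called higher, and DESeq2 gave 5, beside 294 of 9857. The RnrL call was lost without Ind-positive replicate 1 or Ind-negative replicate 2.

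Several further members had the same order at 6-8 h. Mcm5 had 91 and 98.8 TPM in Ind-positive cells, against 54.9 and 53.2 TPM in Ind-negative cells. CycE had 245 and 214 TPM, against 175 and 156 TPM. dap had 485 and 444 TPM, against 267 and 285 TPM. All 3 were separated and none was called. CycA had 582 and 504 TPM in Ind-positive cells, against 394 and 383 TPM in Ind-negative cells, and E2f1 had 367 and 288 TPM, against 223 and 196 TPM. CycB had 411 and 417 TPM, against 424 and 465 TPM, and stg had 406 and 359 TPM, against 450 and 420 TPM. CycB and stg were thus the role genes that lay lower in the positive cells in TPM.

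Vnd-positive cells at 4-6 h had negative fold changes for most members, although no single gene passed the test. In edgeR 0 of 40 members were called in either direction, beside 0.555% of all genes called higher, and DESeq2 also called 0 as higher. 8 members had an unadjusted p under 0.05, beside 1121 of the 17109 genes tested. The median was -0.57 over the members (37 negative) and 0.03 over all genes, and 32 members had both positive libraries below both negative ones, beside 18.2% of all genes. With median-of-ratios scaling, which lifted the median of all genes in this sort by 0.18, the median over the members was -0.39. twe had the smallest p: it had 9.4 and 10.5 TPM in Vnd-positive cells, against 22.4 and 24.1 TPM in Vnd-negative cells (log2 -1.45, SE 0.44, adjusted p = 0.152). The germ cell markers summed to 284 and 270 TPM in Vnd-positive cells, against 676 and 793 TPM in Vnd-negative cells, and their part in this value was not tested.

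CycE had 113 and 127 TPM in Vnd-positive cells at 4-6 h, against 169 and 168 TPM in Vnd-negative cells. CycB had 291 and 313 TPM, against 695 and 792 TPM. PCNA had 140 and 157 TPM, against 168 and 173 TPM. In each of these genes both Vnd-positive libraries were the lower ones, with CycB the farthest apart, in the same order as the germ cell markers given for twe, whose part in the CycB value was not tested. CycA had 263 and 287 TPM in Vnd-positive cells, against 346 and 314 TPM in Vnd-negative cells, Mcm5 had 51.9 and 55.3 TPM, against 70.2 and 67.6 TPM, and stg had 462 and 526 TPM, against 605 and 578 TPM. dap had 328 and 356 TPM, against 221 and 214 TPM, and E2f1 had 175 and 196 TPM, against 163 and 162 TPM. dap and E2f1 ran the other way in TPM, higher in the Vnd-positive cells. With 1 library left out, the log2 fold change was 0.27 to 0.68 for dap and -0.23 to 0.2 for E2f1.

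At 6-8 h the Vnd-positive and Vnd-negative cells lay near each other. 0 of 40 members were called higher, beside 0.0877% of all genes, and DESeq2 called 0. An unadjusted p under 0.05 held for 0 members, beside 644 of the 17109 genes tested. The median was -0.16 over the members and 0.00 over all genes. CycE had 154 and 162 TPM in Vnd-positive cells, against 146 and 161 TPM in Vnd-negative cells, and overlapped. PCNA had 175 and 197 TPM, against 138 and 131 TPM, and Mcm5 had 64 and 69.5 TPM, against 51.2 and 59.7 TPM. CycA had 346 and 398 TPM, against 336 and 336 TPM. These 3 genes were a little higher in the positive cells in TPM. dap had 381 and 406 TPM in Vnd-positive cells, against 278 and 229 TPM in Vnd-negative cells, and E2f1 had 221 and 241 TPM, against 169 and 171 TPM. CycB had 317 and 350 TPM, against 384 and 407 TPM, and stg had 321 and 347 TPM, against 408 and 420 TPM.

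The neuroblast lineage was compared in the Pros sort. dap was the member with a call at both times. It had 771 and 821 TPM in Pros-positive cells at 4-6 h, against 234 and 304 TPM in Pros-negative cells, and 685 and 652 TPM at 6-8 h, against 230 and 181 TPM. The 2 groups were far apart at each time, with log2 fold changes of 1.82 (SE 0.51, adjusted p = 0.0292) and 1.78 (SE 0.51, adjusted p = 0.0441). At 4-6 h, 1 of 40 members was called higher, beside 3.6% of all genes, and at 6-8 h again 1, beside 2.27%. At 4-6 h the dap call was lost without Pros-positive replicate 2 or either Pros-negative library, and at 6-8 h without any one of the 4 libraries.

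Beyond dap, most members had positive fold changes in the Pros sort at 4-6 h without a call. The median was 0.64 over the members (35 positive) and -0.20 over all genes, and 27 members had both positive libraries above both negative ones, beside 18.3% of all genes. 16 members had an unadjusted p under 0.05, beside 3021 of the 17109 genes tested. 7 were called higher by DESeq2, beside 979 of 11190 genes, and 6 with median-of-ratios scaling, beside 896 of 17109. CycA had 480 and 499 TPM in Pros-positive cells at 4-6 h, against 259 and 285 TPM in Pros-negative cells (log2 1.15, SE 0.50, adjusted p = 0.208). E2f1 had 255 and 301 TPM, against 152 and 179 TPM (log2 1.18, SE 0.41, adjusted p = 0.0961). PCNA had 183 and 203 TPM, against 146 and 144 TPM, and Mcm5 had 65.3 and 69.1 TPM, against 45.5 and 48.8 TPM. All 4 genes were separated between the groups. CycE had 119 and 147 TPM in Pros-positive cells, against 131 and 138 TPM in Pros-negative cells, and overlapped. stg had 549 and 639 TPM, against 500 and 581 TPM, and overlapped too, while CycB had 371 and 432 TPM, against 624 and 799 TPM, and lay below. Germ cell markers summed to 227 and 244 TPM in Pros-positive cells, against 798 and 929 TPM in Pros-negative cells, and their part in the CycB value was not tested.

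At 6-8 h the order of the mitotic cyclins in the Pros sort was again split. CycA had 577 and 621 TPM in Pros-positive cells, against 356 and 381 TPM in Pros-negative cells. CycB had 441 and 383 TPM in Pros-positive cells, against 1500 and 705 TPM in Pros-negative cells, with a fold change of -1.34 (SE 0.56) and an adjusted p of 0.276. The 2 negative libraries of CycB differed widely from each other, and the germ cell markers followed the same order, with 255 and 203 TPM in Pros-positive cells, against 1030 and 428 TPM in Pros-negative cells. Their part in the CycB value was not tested. PCNA had 252 and 262 TPM in Pros-positive cells, against 160 and 148 TPM in Pros-negative cells, Mcm5 had 87 and 95.2 TPM, against 68.6 and 79.1 TPM, and E2f1 had 355 and 337 TPM, against 184 and 172 TPM. CycE had 190 and 154 TPM, against 211 and 197 TPM, and stg had 484 and 387 TPM, against 573 and 506 TPM. The median over the members was 0.20, against -0.07 over all genes, so the set as a whole lay nearer to the other cells than at 4-6 h.

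**Figure D2:**
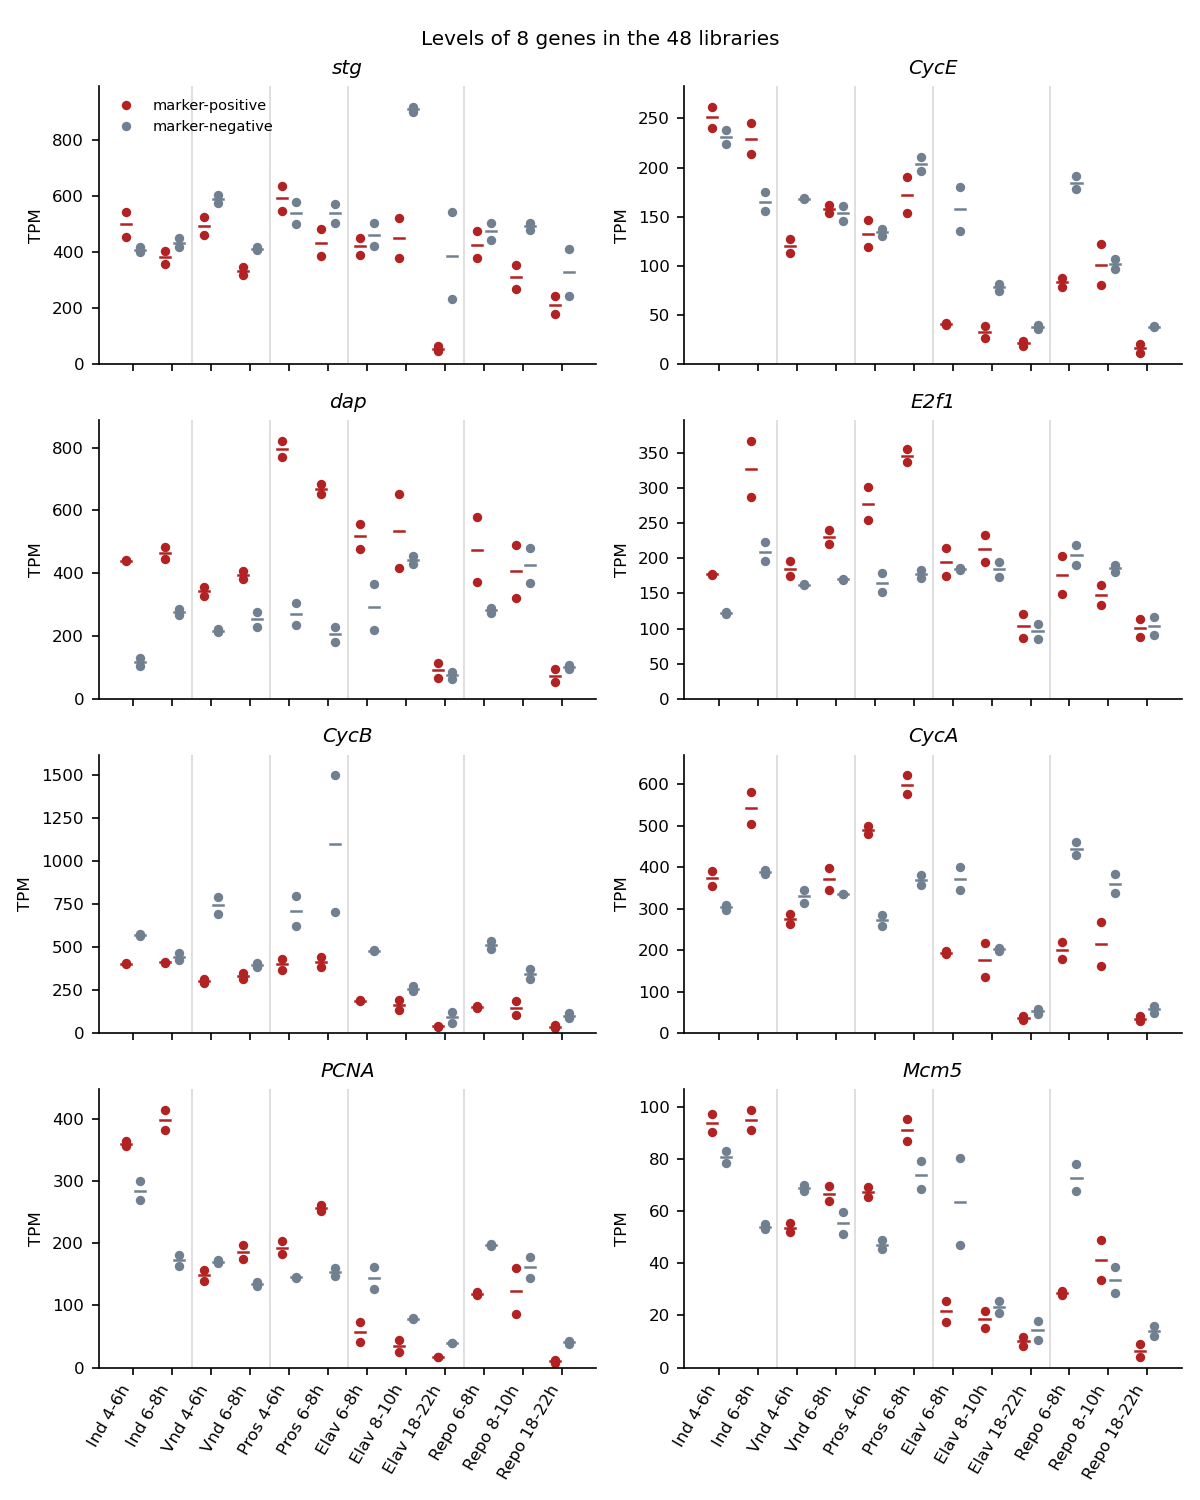
TPM (vertical axis) of stg, CycE, dap, E2f1, CycB, CycA, PCNA and Mcm5 in every library, with positive and negative cells of each sort side by side, 2 points per group and a short line at the mean. dap is highest in Pros-positive cells (771 and 821 TPM at 4-6 h), and CycE is low in Elav-positive cells at all 3 times.

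In neurons and glia at 6-8 h the members called were all lower. In Elav-positive cells 21 of 40 members were lower than in Elav-negative cells and 0 were higher, beside 7.67% of all genes called lower. In Repo-positive cells 30 of 40 were lower and 0 higher, beside 10.4% of all genes called lower. The median over the members was -1.17 in the Elav sort and -1.63 in the Repo sort, against -0.02 and 0.22 over all genes. With median-of-ratios scaling, which shifted the Repo sort by 0.37, the median over the members there was -1.27. That scaling called 28 members lower, beside 1105 of 17109 genes. Without any one of its 4 libraries the Elav count was 10 to 13. It was 10 when the 4 libraries of the sort were fitted alone, beside 367 of 15930 genes called lower. The Repo count was 15 without Repo-negative replicate 2, 18 without Repo-positive replicate 1 and 4 without Repo-positive replicate 2.

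The 12 replication genes carried much of this difference: 11 were lower in the Elav sort (all but Mcm3, with 26.2 and 19.5 TPM in Elav-positive cells, against 43.8 and 33.3 TPM in Elav-negative cells) and 12 in the Repo sort. dup, which loads the Mcm helicase, had 31.5 and 35.3 TPM in Elav-positive cells, against 160 and 134 TPM in Elav-negative cells (log2 -2.19, SE 0.42, adjusted p = 0.000247). In the Repo sort it had 47.6 and 55.8 TPM in Repo-positive cells, against 173 and 166 TPM in Repo-negative cells (log2 -2.28, SE 0.42, adjusted p = 0.000231). The positive libraries were far below the negative ones in both sorts. Mcm6, another helicase subunit, had 15.2 and 14.4 TPM in Elav-positive cells, against 56.3 and 48 TPM in Elav-negative cells (log2 -2.0, SE 0.35, adjusted p = 7.43e-05). Mcm5 had 25.7 and 17.7 TPM in Elav-positive cells, against 80.2 and 46.9 TPM in Elav-negative cells, and 27.9 and 29.3 TPM in Repo-positive cells, against 77.9 and 67.7 TPM in Repo-negative cells. PCNA had 73 and 41.8 TPM in Elav-positive cells, against 161 and 127 TPM in Elav-negative cells, and 121 and 117 TPM in Repo-positive cells, against 199 and 196 TPM in Repo-negative cells. Both fell in both sorts, PCNA by 1.5 and 1.49 on the log2 scale and Mcm5 by 1.70 and 2.01.

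Of the 9 genes of G1 and S-phase entry, CycE, CycD and Cdk4 were lower in Elav-positive cells, and CycE, Cdk2, Cdk4 and Dp in Repo-positive cells. CycE had 41.7 and 39.7 TPM in Elav-positive cells, against 180 and 136 TPM in Elav-negative cells (log2 -1.98, SE 0.41, adjusted p = 0.000518). It had 78.8 and 88.1 TPM in Repo-positive cells, against 191 and 178 TPM in Repo-negative cells (log2 -1.62, adjusted p = 0.00447). CycE was therefore low in both, with the lower level in neurons. Cdk4, the kinase partner of Cyclin D in growth and G1, had 15.8 and 13 TPM in Elav-positive cells, against 43 and 61.2 TPM in Elav-negative cells (log2 -2.02, SE 0.38, adjusted p = 0.00019). dap ran the other way in TPM, with 557 and 478 TPM in Elav-positive cells, against 218 and 366 TPM in Elav-negative cells, and 579 and 372 TPM in Repo-positive cells, against 274 and 290 TPM in Repo-negative cells, and was called in neither. E2f1 had 175 and 215 TPM in Elav-positive cells, against 186 and 184 TPM in Elav-negative cells, and 203 and 149 TPM in Repo-positive cells, against 191 and 219 TPM in Repo-negative cells, and overlapped in both sorts.

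Among the mitotic regulators the 2 sorts gave different counts. The cyclins and Cdk1 were called lower in Repo-positive cells (CycA, CycB, CycB3 and Cdk1, 4 of the 6 genes of that role) and in no case in Elav-positive cells. CycB had 147 and 161 TPM in Repo-positive cells, against 491 and 536 TPM in Repo-negative cells (log2 -2.36, SE 0.58, adjusted p = 0.00425), and 195 and 185 TPM in Elav-positive cells, against 476 and 486 TPM in Elav-negative cells (log2 -1.48, SE 0.57, adjusted p = 0.0723). CycA had 220 and 180 TPM in Repo-positive cells, against 429 and 461 TPM in Repo-negative cells, and 190 and 197 TPM in Elav-positive cells, against 401 and 344 TPM in Elav-negative cells. Both cyclins thus lay below the negative cells in both sorts, and the test of the Elav against the Repo fold change gave 0 of 40 calls at 6-8 h in edgeR, beside 7.24% of all genes. DESeq2 called 1 there, beside 1139 genes higher and 1270 lower of the 17186 it tested. In edgeR 6 members had an unadjusted p under 0.05, beside 3649 of the 17109 genes tested. BubR1, a spindle checkpoint kinase, had 15.6 and 21.8 TPM in Repo-positive cells, against 58 and 58.1 TPM in Repo-negative cells (log2 -2.18, SE 0.33, adjusted p = 1.77e-05). RnrS, the small subunit of ribonucleotide reductase, had 85 and 70.4 TPM in Repo-positive cells, against 249 and 223 TPM in Repo-negative cells, with the same fold change (SE 0.45, adjusted p = 0.000751). Both were widely separated. stg had 392 and 453 TPM in Elav-positive cells, against 505 and 422 TPM in Elav-negative cells, and 476 and 380 TPM in Repo-positive cells, against 507 and 443 TPM in Repo-negative cells. stg overlapped in both sorts, at a level near that of the dividing populations.

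**Figure D3:**
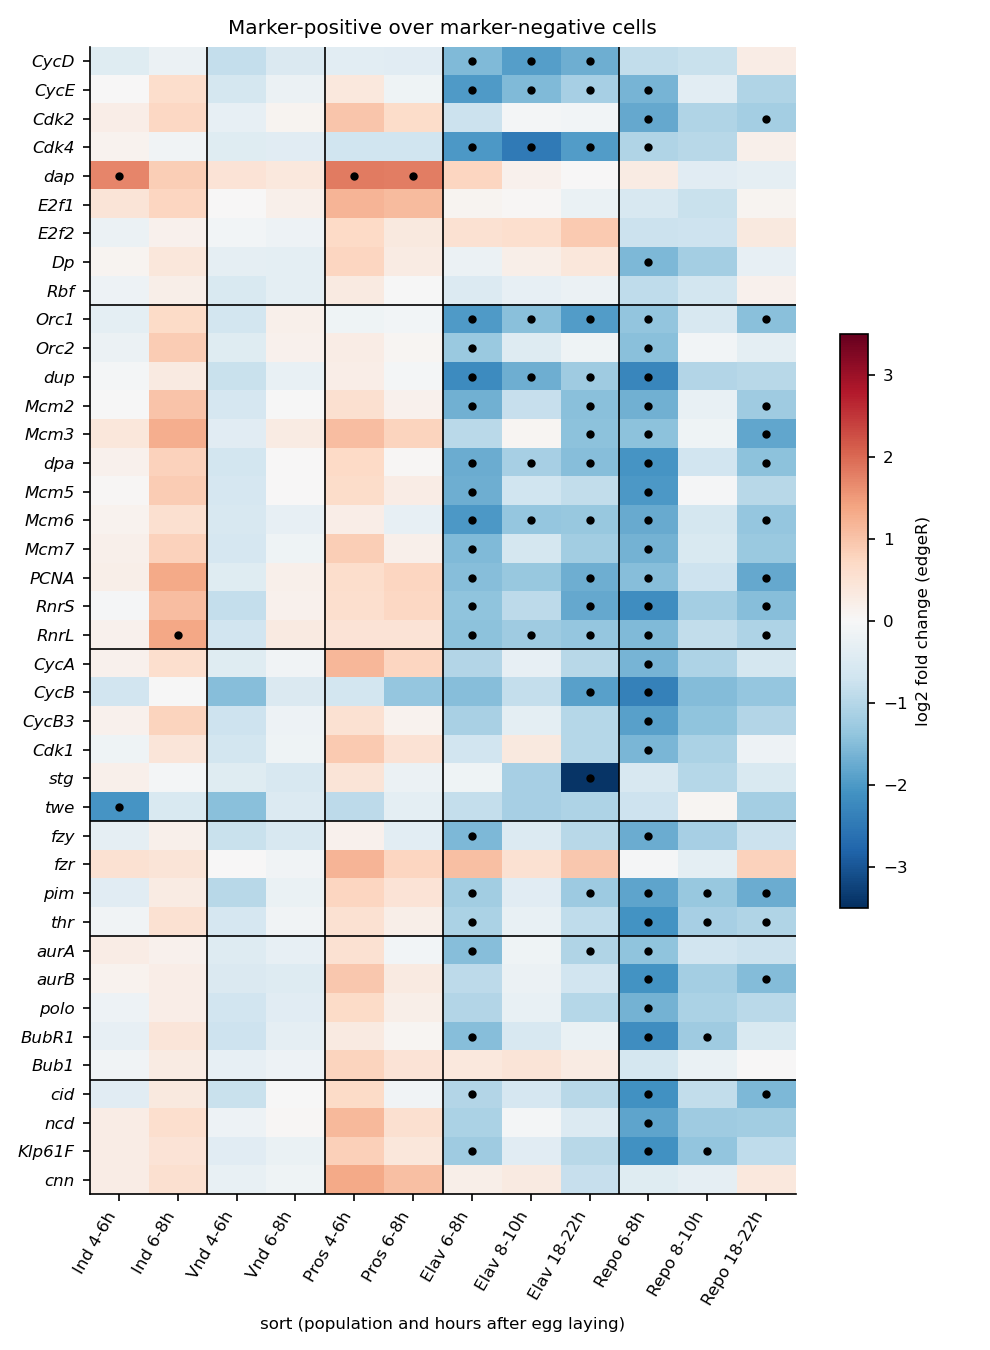
Log2 fold change of marker-positive over marker-negative cells for the 40 members (rows, grouped by role) in the 12 sorts (columns), on a colour scale between -3.5 and 3.5, with a dot on each called cell. Dots fill most of the replication rows in the 6-8 h Elav and Repo columns (11 and 12 of 12 genes), while the Ind, Vnd and Pros columns hold 2 dots at most.

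The second comparison set the columns and the neuroblast lineage against neurons and glia directly, all at 6-8 h: the mean of Ind-, Vnd- and Pros-positive cells over the mean of Elav- and Repo-positive cells. 25 of 40 members were higher in the columns and neuroblast lineage and 0 were lower, beside 4.87% of all genes called higher. The median was 1.19 over the members and 0.13 over all genes. All 12 replication genes were higher, with 2 of 9 genes of G1 and S-phase entry (CycE and Cdk2), 3 of 6 mitotic cyclins and partners (CycA, CycB and CycB3), 2 of 4 anaphase genes (pim and thr), 3 of 5 kinases and checkpoint genes (aurA, aurB and BubR1) and 3 of 4 centromere and spindle genes (cid, ncd and Klp61F). Leaving out 1 library gave 17 to 25 calls.

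RnrS had 367 and 412 TPM in Ind-positive, 200 and 228 TPM in Vnd-positive and 343 and 401 TPM in Pros-positive cells, against 95.8 and 60.2 TPM in Elav-positive and 85 and 70.4 TPM in Repo-positive cells. Every library of the columns and the neuroblast lineage lay above every library of neurons and glia, and the fold change was 1.94 (log2, SE 0.30, adjusted p = 1.43e-05). dup had 181 and 181 TPM in Ind-positive, 132 and 146 TPM in Vnd-positive and 158 and 166 TPM in Pros-positive cells, against 31.5 and 35.3 TPM in Elav-positive and 47.6 and 55.8 TPM in Repo-positive cells (log2 1.82, SE 0.28, adjusted p = 1.29e-05). dpa, the Mcm4 subunit of the helicase, had 146 and 149 TPM in Ind-positive, 94.9 and 100 TPM in Vnd-positive and 108 and 112 TPM in Pros-positive cells, against 32.4 and 27.9 TPM in Elav-positive and 39.2 and 37.2 TPM in Repo-positive cells (log2 1.74, SE 0.27, adjusted p = 1.3e-05). The same full separation held for both of them. At the other end, fzr had a fold change of -0.53, stg -0.32, E2f2 -0.30 and dap -0.15, none called.

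The negative cells of the same sorts were compared in the same way, because the sorts came from different lines. They also differ in which cells were sorted out of them, so line and makeup cannot be told apart there. In negative cells 0 of 40 members were called higher, beside 0.199% of all genes, and DESeq2 called 0. 10 members had an unadjusted p under 0.05, beside 2825 of the 17109 genes tested. The median was -0.46 over the members (39 negative) and 0.17 over all genes, so these genes lay slightly lower in the negative cells of the Ind, Vnd and Pros sorts than in those of the Elav and Repo sorts. RnrL had the smallest p: 23.3 and 18.5 TPM in Ind-negative, 24.1 and 22 TPM in Vnd-negative and 28.5 and 25.5 TPM in Pros-negative cells, against 24.3 and 29 TPM in Elav-negative and 24.9 and 26.8 TPM in Repo-negative cells (log2 -0.55, SE 0.16, adjusted p = 0.132). The libraries overlapped.

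Tested as the fold change in positive cells minus that in negative cells, the difference was called for 28 of 40 members, all positive, beside 11.6% of all genes called in either direction. The median difference was 1.72 over the members and -0.17 over all genes. The negative cells, with a median of -0.46 over the members, enter this difference. Their makeup differed between the sorts, and its part in the difference was not tested. The largest differences were those of RnrS (2.46, SE 0.40, adjusted p = 4.44e-05), PCNA (2.25, SE 0.43, adjusted p = 0.000361) and Mcm5 (2.24, SE 0.33, adjusted p = 1.35e-05). PCNA had 414 and 382 TPM in Ind-positive, 175 and 197 TPM in Vnd-positive and 252 and 262 TPM in Pros-positive cells, against 73 and 41.8 TPM in Elav-positive and 121 and 117 TPM in Repo-positive cells, again without overlap. Without 1 library the count was 21 to 28.

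**Figure D4:**
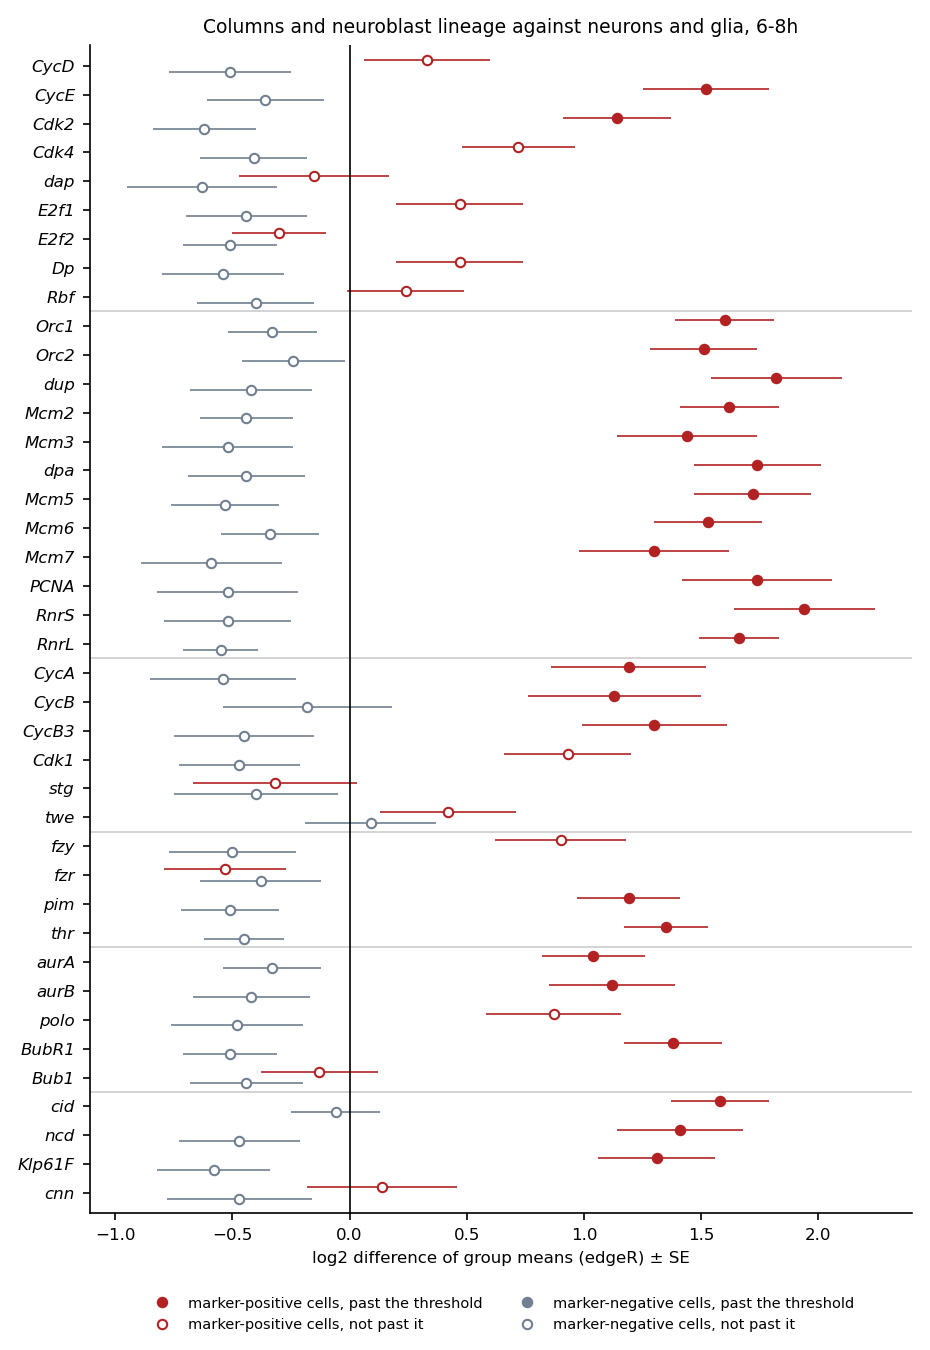
Log2 fold change, with its standard error, of the columns and neuroblast lineage over neurons and glia at 6-8 h for the 40 members (rows), in positive cells and in negative cells, with filled points for called genes. In positive cells all 12 replication genes lie above 1, whereas in negative cells the values lie between -0.63 and 0.09.

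At 8-10 h fewer members were called in neurons and glia. In the Elav sort 8 of 40 were lower in the positive cells, beside 7.8% of all genes, and 5 of them were replication genes. In the Repo sort 4 of 40 were lower, beside 2.08% of all genes, and none was a replication gene. The medians were -0.43 and -0.81 over the members, against 0.14 and 0.32 over all genes. The Elav count depended on single libraries (1 without Elav-negative replicate 1, 3 without Elav-positive replicate 2, 14 without Elav-positive replicate 1), as did the Repo count (0 without Repo-negative replicate 1 or Repo-positive replicate 2, 2 without Repo-negative replicate 2, 17 without Repo-positive replicate 1). With the receptor level as a covariate the Repo count was 10, beside 529 of 17109 genes called lower. With the replicate number as a block it was 7, beside 491 of 17109, and the Elav count was 11, beside 1519 of 17109. Fitted on the libraries of each sort alone, the counts were 1 and 0, beside 154 of 16751 and 85 of 16957 genes called lower.

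In Elav-positive cells at 8-10 h the G1 kinase and its cyclin fell furthest. Cdk4 had 15.1 and 20.6 TPM in Elav-positive cells, against 78.1 and 65.1 TPM in Elav-negative cells (log2 -2.47, SE 0.38, adjusted p = 2.62e-05). CycD had 23.2 and 17.9 TPM, against 74.7 and 63 TPM (log2 -1.92, SE 0.43, adjusted p = 0.0017). dup had 20.1 and 23.7 TPM, against 58.4 and 61.9 TPM (log2 -1.70, SE 0.41, adjusted p = 0.0042). All 3 were separated widely, and CycE was also lower, with 26.5 and 39.1 TPM in Elav-positive cells, against 74.4 and 82.2 TPM in Elav-negative cells (log2 -1.55, adjusted p = 0.00697). PCNA had 43.7 and 24.6 TPM, against 79.9 and 77.5 TPM, and missed the threshold (log2 -1.33, adjusted p = 0.0615). stg had 522 and 381 TPM, against 901 and 921 TPM, the highest stg values of all groups. Mcm5 had 15.3 and 21.9 TPM, against 20.9 and 25.4 TPM, CycB 194 and 137 TPM, against 273 and 246 TPM, CycA 217 and 135 TPM, against 206 and 198 TPM, dap 653 and 416 TPM, against 454 and 430 TPM, and E2f1 195 and 233 TPM, against 174 and 195 TPM. CycB was separated, lower in the positive cells, and E2f1 was higher there by a narrow margin, while Mcm5, CycA and dap overlapped.

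The negative cells of the 8-10 h Elav sort were themselves low in these genes. Their median over the members was 54.4 ± 0.748 TPM, against 78.8 ± 7.28 TPM in the negative cells of the 8-10 h Repo sort, and Mcm5, Klp61F and thr, picked after their values were seen, had lower values in both Elav-negative libraries than in either Repo-negative library. The lines of these 2 sorts differed (yw and vnd-lexA/VC:FNLDD), so line and sort cannot be told apart.

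In Repo-positive cells at 8-10 h the members called were mitotic. Klp61F, a spindle motor of the kinesin-5 family, had 34.1 and 28.8 TPM in Repo-positive cells, against 66.8 and 55.3 TPM in Repo-negative cells (log2 -1.39, SE 0.38, adjusted p = 0.0327). pim, the fly securin, which holds separase in check, had 27 and 26.7 TPM, against 46.4 and 49.7 TPM (log2 -1.32, SE 0.33, adjusted p = 0.0171). BubR1 had 23.1 and 25 TPM, against 44.3 and 39.7 TPM (log2 -1.25, SE 0.32, adjusted p = 0.0184). thr, the separase, had 19.6 and 19.1 TPM, against 32.2 and 32.1 TPM and completed the 4. CycE had 122 and 80.7 TPM in Repo-positive cells, against 107 and 96.6 TPM in Repo-negative cells, PCNA 160 and 86.9 TPM, against 144 and 178 TPM, Mcm5 49.1 and 33.6 TPM, against 38.7 and 28.5 TPM, and E2f1 162 and 133 TPM, against 181 and 191 TPM. CycA had 268 and 162 TPM, against 383 and 337 TPM, CycB 190 and 109 TPM, against 374 and 317 TPM, stg 356 and 270 TPM, against 480 and 506 TPM, and dap 491 and 321 TPM, against 481 and 370 TPM. Of these 8 genes CycE, PCNA, Mcm5 and dap overlapped between the groups, while E2f1, CycA, CycB and stg were lower in both Repo-positive libraries. The Elav fold change minus the Repo fold change was called for 0 of 40 members at 8-10 h in edgeR, beside 4.37% of all genes. DESeq2 gave 7 calls, beside 1063 genes called higher and 928 lower of the 10190 it tested. In edgeR 8 members had an unadjusted p under 0.05, beside 2341 of the 17109 genes tested. E2f2, the repressing E2F factor, had the smallest p in that test (difference 1.32, SE 0.44, adjusted p = 0.0967), as it had at 6-8 h (1.3, SE 0.44, adjusted p = 0.072).

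At 18-22 h, close to hatching, 16 of 40 members were lower in Elav-positive than in Elav-negative cells, beside 11.8% of all genes, and 13 of 40 were lower in Repo-positive than in Repo-negative cells, beside 2.63%. The medians were -1.0 and -0.97 over the members, against -0.12 and -0.21 over all genes, and no member was called higher in either sort, apart from the Elav sort under 4 alternatives: 2 without Elav-negative replicate 1, 2 with the receptor level as covariate, 1 with DESeq2 and 1 with length-scaled counts. Replication genes made up 9 of the 16 and 8 of the 13. Blood cell markers summed to 542 and 556 TPM in Elav-positive cells, against 21600 and 7520 TPM in Elav-negative cells, and to 581 and 574 TPM in Repo-positive cells, against 15700 and 6970 TPM in Repo-negative cells, so the other cells of the sort were of another makeup than at earlier times. The part of that makeup in the fold changes was not tested. The Elav count was lower without Elav-negative replicate 1 or Elav-positive replicate 1, and higher without Elav-negative replicate 2. It was 0 when the libraries of the sort were fitted alone, a fit that called 0 of all 16700 genes tested. The Repo count was 3, 6 and 0 without Repo-negative replicate 1, Repo-negative replicate 2 and Repo-positive replicate 1.

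stg was the member furthest below the other cells in neurons at this stage. It had 46.9 and 66.5 TPM in Elav-positive cells, against 543 and 235 TPM in Elav-negative cells (log2 -3.42, SE 0.61, adjusted p = 9.09e-05). In the Repo sort it had 181 and 246 TPM in Repo-positive cells, against 412 and 246 TPM in Repo-negative cells, which was not called. Cdk4 had 11.3 and 7.7 TPM in Elav-positive cells, against 27.4 and 24.9 TPM in Elav-negative cells (log2 -1.96, SE 0.38, adjusted p = 0.00027), and 21.3 and 20.7 TPM in Repo-positive cells, against 21.6 and 22 TPM in Repo-negative cells. CycD had 11.4 and 11.5 TPM in Elav-positive cells, against 27.1 and 26.4 TPM in Elav-negative cells, and 22.7 and 27.3 TPM in Repo-positive cells, against 24.7 and 20.8 TPM in Repo-negative cells. For all 3 genes the neurons were low and the glia were near the other cells. The difference between the Elav and the Repo fold changes was tested directly and was called for these 3 of 40 members: stg (-2.90, SE 0.80, adjusted p = 0.0124), Cdk4 (-2.14, SE 0.52, adjusted p = 0.00477) and CycD (-1.97, SE 0.59, adjusted p = 0.0239), beside 12.3% of all genes. That share is above the members' own, so the count is not read as a result about the set. Leaving out 1 library gave 0 to 4 calls in that test, with 0 without Elav-negative replicate 1 and 1 without Elav-positive replicate 1 or Repo-negative replicate 2, and 0 when the libraries of these 2 sorts were fitted alone.

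Replication genes were the largest role among the late calls in both sorts. Orc1, a subunit of the origin recognition complex, had 5.57 and 4.33 TPM in Elav-positive cells, against 11.3 and 18.7 TPM in Elav-negative cells (log2 -1.96, SE 0.31, adjusted p = 2.43e-05). PCNA had 17.5 and 17.1 TPM in Elav-positive cells, against 40 and 40.3 TPM in Elav-negative cells, and 7.3 and 12.6 TPM in Repo-positive cells, against 38.7 and 42.8 TPM in Repo-negative cells (log2 -1.72 and -1.78, adjusted p = 0.0095 and 0.024). Mcm3 had 1.47 and 3.35 TPM in Repo-positive cells, against 9.69 and 8.8 TPM in Repo-negative cells (log2 -1.83, SE 0.46, adjusted p = 0.0122). Each of these groups was separated, with Mcm3 in glia at one of the lowest levels of the set. Receptor medians at this age were 10.4 and 3.31 TPM in Elav-positive and 0.225 and 15.9 TPM in Elav-negative libraries. They were 3.46 and 3.87 TPM in Repo-positive and 4.15 and 6.88 TPM in Repo-negative libraries. Orc1 followed their order within both Elav groups, and Mcm3 in Repo-positive cells lay below them. The part of the receptor level in these low values was not tested. pim had 3.74 and 6.77 TPM in Repo-positive cells, against 21.3 and 18.9 TPM in Repo-negative cells (log2 -1.74, SE 0.34, adjusted p = 0.00129). CycE had 19.1 and 23.5 TPM in Elav-positive cells, against 36.1 and 39.6 TPM in Elav-negative cells (called, log2 -1.16), and 12.1 and 21 TPM in Repo-positive cells, against 37.6 and 38.9 TPM in Repo-negative cells (log2 -1.05, adjusted p = 0.136). CycB had 34.2 and 44.6 TPM in Elav-positive cells, against 126 and 60.4 TPM in Elav-negative cells (called, log2 -1.91), and 28.1 and 47.2 TPM in Repo-positive cells, against 115 and 90.6 TPM in Repo-negative cells (log2 -1.35, adjusted p = 0.199). The positive libraries of CycE and CycB lay below the negative ones in both sorts.

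The remaining role genes were not called between the late groups. CycA had 33.1 and 42.1 TPM in Elav-positive cells, against 58.5 and 46.4 TPM in Elav-negative cells, and 29.2 and 40.6 TPM in Repo-positive cells, against 65.5 and 49.4 TPM in Repo-negative cells. Mcm5 had 11.9 and 8.25 TPM in Elav-positive cells, against 10.6 and 18 TPM in Elav-negative cells, and 4.21 and 8.93 TPM in Repo-positive cells, against 12.3 and 16.1 TPM in Repo-negative cells. dap had 67 and 114 TPM in Elav-positive cells, against 64.7 and 84.1 TPM in Elav-negative cells, and 52.1 and 93.7 TPM in Repo-positive cells, against 93.9 and 108 TPM in Repo-negative cells. Of these 3, CycA was separated in both sorts and Mcm5 and dap only in the Repo sort. E2f1 had 86.2 and 121 TPM in Elav-positive cells, against 85.9 and 107 TPM in Elav-negative cells, and 87.6 and 113 TPM in Repo-positive cells, against 91.1 and 116 TPM in Repo-negative cells, and overlapped in both sorts.

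The third comparison followed each positive population with age. Between 4-6 h and 6-8 h no member was called lower in any of the 3 early populations by edgeR or by DESeq2: 0 of 40 in Ind-positive, Vnd-positive and Pros-positive cells, beside 0.0643%, 0.00584% and 0.00584% of all genes. An unadjusted p under 0.05 held for 1, 0 and 0 members, beside 1180, 537 and 342 of the 17109 genes tested. The medians were 0.13, 0.09 and 0.10. The member with the smallest p was E2f1 in Ind-positive cells, with 367 and 288 TPM at 6-8 h, against 177 and 178 TPM at 4-6 h (log2 0.85, SE 0.41, adjusted p = 0.718). In Vnd-positive cells it was stg, with 321 and 347 TPM at 6-8 h, against 462 and 526 TPM at 4-6 h (log2 -0.86, SE 0.56, adjusted p = 1). In Pros-positive cells it was RnrS, with 343 and 401 TPM at 6-8 h, against 224 and 230 TPM at 4-6 h (log2 0.64, SE 0.43, adjusted p = 1). The TPM of all 3 were separated between the times, and the line changed with the time in Ind cells only.

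Between 6-8 h and 8-10 h, again 0 of 40 members were called lower in Elav-positive or Repo-positive cells, by edgeR or DESeq2, beside 0.0117% and 0.0175% of all genes. An unadjusted p under 0.05 held for 6 and 3 members, beside 1172 and 1940 of the 17109 genes tested. The medians were -0.43 (38 of 40 negative) and -0.31, against 0.01 and 0.38 over all genes. dup in Elav-positive cells had 20.1 and 23.7 TPM at 8-10 h, against 31.5 and 35.3 TPM at 6-8 h (log2 -1.05, SE 0.41, adjusted p = 0.65). E2f1 in Repo-positive cells had 162 and 133 TPM at 8-10 h, against 203 and 149 TPM at 6-8 h (log2 -0.95, SE 0.41, adjusted p = 0.427). The dup libraries were separated and those of E2f1 overlapped. Both comparisons cross lines, so age and line cannot be told apart there. In Repo-positive cells the median turned to 0.10 with the receptor level as a covariate, and leaving out the 6-8 h Repo-positive replicate 2 gave 3 calls.

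Calls of a decline came between 8-10 h and 18-22 h, and they came in all 4 sets of cells. The negative cells were not tested between 6-8 h and 8-10 h. Their median over the members was 85.9 ± 23.8 and 54.4 ± 0.748 TPM at those times in the Elav sort. In the Repo sort it was 98.2 ± 1.75 and 78.8 ± 7.28 TPM, so an earlier start of the decline was not tested. In Elav-positive cells 22 of 40 members were lower at 18-22 h than at 8-10 h, beside 4.25% of all genes, and in Repo-positive cells 27 of 40, beside 5.05%. In the negative cells 15 of 40 were lower in the Elav sort, beside 4.8%, and 30 of 40 in the Repo sort, beside 8.14%. The medians over the members were -1.21, -1.85, -0.87 and -1.58 in that order, against 0.03, -0.32, 0.22 and 0.11 over all genes. The Repo cells came from one line at both times, while for the Elav cells age and line cannot be told apart. The positive change minus the negative change was called for 0 of 40 members in the Elav sort, beside 0.514% of all genes, and for 0 of 40 in the Repo sort, beside 0.321%, by edgeR. 3 and 6 members had an unadjusted p under 0.05, beside 1354 and 1793 of the 17109 genes tested. DESeq2 called 3 in each. Over all genes it called 422 higher and 384 lower of 10190 in the Elav sort, and 424 higher and 541 lower of 9857 in the Repo sort. The decline was therefore not shown to differ between the marked cells and the rest, with the smallest p for stg in the Elav sort (-2.27, SE 0.79, adjusted p = 0.261) and for Mcm3 in the Repo sort (-1.68, SE 0.63, adjusted p = 0.291).

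In Elav-positive cells 5 of the 6 mitotic cyclin, Cdk1 and Cdc25 genes, all 4 anaphase genes and 5 of 12 replication genes were lower at 18-22 h, and the difference between roles was not tested. stg had 46.9 and 66.5 TPM at 18-22 h, against 522 and 381 TPM at 8-10 h (log2 -2.94, SE 0.59, adjusted p = 0.00137). Cdk1, the mitotic kinase, had 17.3 and 16.2 TPM, against 109 and 77.3 TPM (log2 -2.59, SE 0.43, adjusted p = 0.000281). dap, the Cyclin E and Cdk2 inhibitor, had 67 and 114 TPM, against 653 and 416 TPM (log2 -2.52, SE 0.52, adjusted p = 0.00171). All 3 were separated by a wide margin. CycA had 33.1 and 42.1 TPM, against 217 and 135 TPM (log2 -2.29), whereas CycE had 19.1 and 23.5 TPM, against 26.5 and 39.1 TPM (log2 -0.42), and was not called. The count was lower without 8-10 h Elav-positive replicate 1 or 18-22 h Elav-positive replicate 1. It was 0 when the 4 libraries were fitted alone, a fit that called 0 of all 16697 genes tested.

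In Repo-positive cells 11 of 12 replication genes, 3 of 6 mitotic cyclin, Cdk1 and Cdc25 genes (all but CycB, stg and twe), 3 of 4 anaphase genes, 4 of 5 kinases and checkpoint genes, and 3 of 4 centromere and spindle genes were lower. Mcm3 had 1.47 and 3.35 TPM at 18-22 h, against 42 and 20.5 TPM at 8-10 h (log2 -3.32, SE 0.48, adjusted p = 2.86e-05). PCNA had 7.3 and 12.6 TPM, against 160 and 86.9 TPM (log2 -3.10, SE 0.51, adjusted p = 0.000104). aurB, the kinase of the chromosomal passenger complex, had 4.28 and 4 TPM, against 51.3 and 43.8 TPM (log2 -2.97, SE 0.44, adjusted p = 3.13e-05). No library of one age reached the other for any of the 3. E2f1 had the smallest fold change in size (0.01), and stg was also close to 0, with 181 and 246 TPM at 18-22 h, against 356 and 270 TPM at 8-10 h (log2 -0.03, adjusted p = 0.982). CycD, Cdk4, Rbf, fzr, Bub1 and cnn, between -0.31 and -0.17, were not called either. The count was 11 without 8-10 h Repo-positive replicate 1 and 16 without 18-22 h Repo-positive replicate 1.

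The negative cells declined too. In Repo-negative cells Klp61F had 7.47 and 7.07 TPM at 18-22 h, against 66.8 and 55.3 TPM at 8-10 h (log2 -3.11, SE 0.41, adjusted p = 1.95e-06). polo, the mitotic kinase, had 25.4 and 26.2 TPM, against 209 and 217 TPM (log2 -3.06, SE 0.48, adjusted p = 2.08e-05), and fzy, the Cdc20 activator of the anaphase-promoting complex, had 18 and 20.9 TPM, against 154 and 156 TPM (log2 -2.96, SE 0.45, adjusted p = 1.44e-05). In Elav-negative cells dap had 64.7 and 84.1 TPM at 18-22 h, against 454 and 430 TPM at 8-10 h (log2 -2.37, SE 0.52, adjusted p = 0.00264). The libraries of the 2 ages were separated in each of these genes. fzr, the Cdh1 activator of the same complex, had 43.4 and 46.4 TPM, against 219 and 215 TPM (log2 -1.97, SE 0.42, adjusted p = 0.00186), and CycA had 58.5 and 46.4 TPM, against 206 and 198 TPM (log2 -1.63, SE 0.50, adjusted p = 0.0322). The Elav-negative count was lower without 8-10 h Elav-negative replicate 1 or 18-22 h Elav-negative replicate 2, and higher without 18-22 h Elav-negative replicate 1. It was 0 when the 4 libraries were fitted alone, a fit that called 0 of all 16802 genes tested. The Repo-negative count was 18 without 8-10 h Repo-negative replicate 1.

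**Figure D5:**
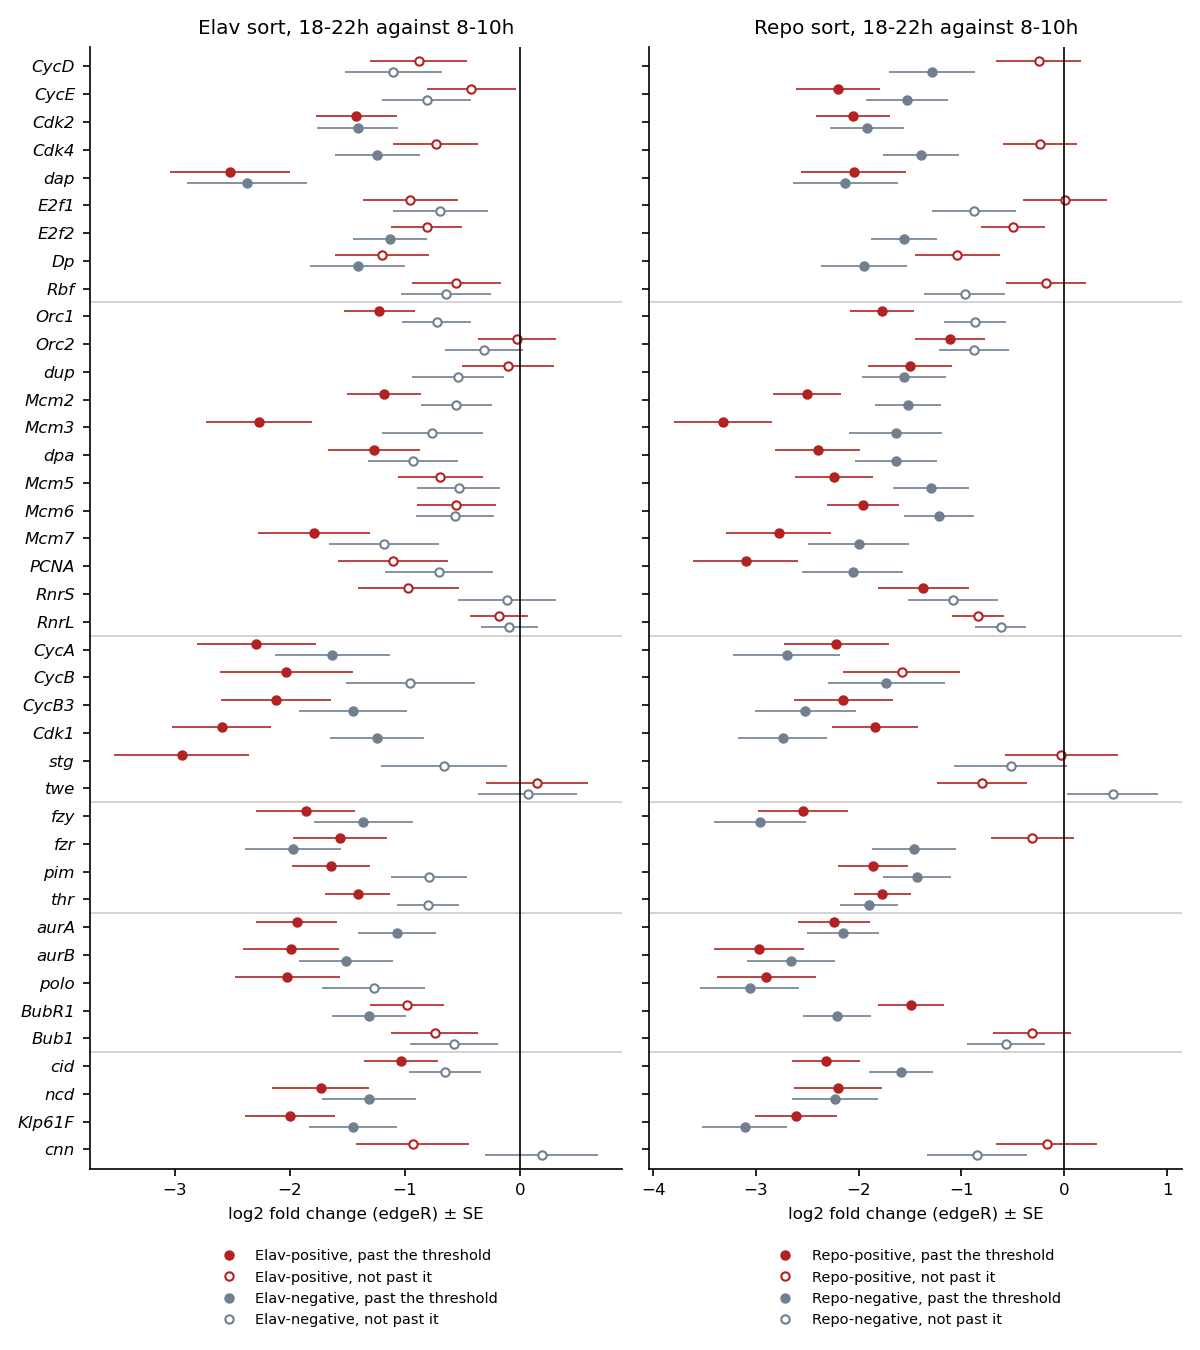
Log2 fold change, with its standard error, at 18-22 h over 8-10 h for the 40 members (rows) in positive and negative cells of the Elav and the Repo sorts, with filled points for called genes. Most points lie left of 0 in all 4 sets, with 22, 27, 15 and 30 members called lower in Elav-positive, Repo-positive, Elav-negative and Repo-negative cells.

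A few members, picked here after their values were seen, kept apart from the shared course. fzr, which keeps the anaphase-promoting complex active after mitosis and in G1, had its highest group mean in Elav-positive cells at 8-10 h. It had 323 and 332 TPM in Elav-positive cells at 6-8 h, against 162 and 156 TPM in Elav-negative cells, and 95.4 and 129 TPM at 18-22 h, against 43.4 and 46.4 TPM. The groups were separated at both times without passing the test (log2 1.05, adjusted p = 0.0753, and 0.95, adjusted p = 0.0966). E2f2 had 150 and 143 TPM in Elav-positive cells at 6-8 h, against 93.1 and 85.5 TPM in Elav-negative cells, and 65 and 67.6 TPM at 18-22 h, against 20.4 and 31.7 TPM (log2 0.92, adjusted p = 0.0333, under the fold threshold). Bub1, a checkpoint kinase, had 65.8 and 68.5 TPM in Elav-positive cells at 8-10 h, against 40.8 and 38.2 TPM in Elav-negative cells. These 3 genes were therefore higher in neurons in every library at the times given. cnn, which organises the centrosome, had 302 and 287 TPM in Pros-positive cells at 6-8 h, against 153 and 139 TPM in Pros-negative cells (log2 1.05, adjusted p = 0.374), and still had 119 and 104 TPM in Repo-positive cells at 18-22 h.

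The low members need the receptor level beside them. Orc2 had 3.71 and 26.4 TPM in the 2 Elav-positive libraries at 8-10 h, whose receptor medians were 0.603 and 15.4 TPM, and 3.69 and 16.3 TPM in the 2 Elav-negative libraries at 18-22 h, whose receptor medians were 0.225 and 15.9 TPM. twe had 3.27 and 12.7 TPM in those 2 Elav-positive libraries. In these pairs the higher value was in the library with the higher receptor level, and its part in the values was not tested. At 6-8 h, where the Elav-positive receptor medians were 2.98 and 0.439 TPM, Orc2 was lower by 1.31 on the log2 scale (8.37 and 4.62 TPM in Elav-positive cells, against 15.3 and 13 TPM in Elav-negative cells, adjusted p = 0.00609).

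The wider pathways were read from lists of other genes. Of 36 further replication genes, 28 were higher in the columns and neuroblast lineage than in neurons and glia at 6-8 h and 0 were lower, beside 4.87% of all genes called higher, led by Fen1, the flap nuclease of lagging-strand synthesis (log2 1.99). Of these 36, 26 were lower in Elav-positive and 29 in Repo-positive cells at 6-8 h, beside 7.67% and 10.4% of all genes, and 24 and 11 at 18-22 h, beside 11.8% and 2.63%. Of 60 further mitosis genes, 26 were higher in the columns and neuroblast lineage at 6-8 h, beside the same 4.87%. In the Repo sort 43 of the 60 were lower in the positive cells at 6-8 h, led by tum, a component of the centralspindlin complex (log2 -2.46), and 12 in the Elav sort, beside 10.4% and 7.67% of all genes. The direct test of the Elav against the Repo fold change called 8 of the 60 at 6-8 h and 5 at 8-10 h, beside 7.24% and 4.37% of all genes, shares too near these counts to read as a result about mitosis genes. In Pros-positive cells at 4-6 h, 11 of the 60 were higher than in Pros-negative cells, led by the kinetochore gene Spc105R (log2 1.58), and 0 of the 36 replication genes were, beside 3.6% of all genes.

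Replication-dependent histone genes gave a readout of S phase that the list did not hold. They are near-identical repeats, so single copies are uncertain and only their sum over 111 genes is given, in ribodepleted libraries that keep transcripts without a poly(A) tail. The sum was 86000 and 91000 TPM in Pros-positive cells at 4-6 h, against 33600 and 35300 TPM in Pros-negative cells, and 74000 and 98600 TPM at 6-8 h, against 43900 and 68500 TPM. In the Ind sort it was 87400 and 87500 TPM in Ind-positive cells at 4-6 h, against 58700 and 62900 TPM in Ind-negative cells, and 132000 and 122000 TPM at 6-8 h, against 93000 and 101000 TPM. In the Vnd sort it was 43800 and 41700 TPM in Vnd-positive cells at 4-6 h, against 46000 and 44200 TPM in Vnd-negative cells, and 76700 and 88800 TPM at 6-8 h, against 79600 and 82300 TPM. The Pros and Ind groups were separated with the positive cells higher, the Vnd groups lay close together and overlapped at 6-8 h. It was 29500 and 20600 TPM in Elav-positive cells at 6-8 h, against 91400 and 53700 TPM in Elav-negative cells. It was 29100 and 31800 TPM in Repo-positive cells at 6-8 h, against 103000 and 102000 TPM in Repo-negative cells. Both sorts were separated, with the positive cells lower. At 8-10 h it was 15400 and 15200 TPM in Elav-positive cells, against 13600 and 17500 TPM in Elav-negative cells, with no separation, and 49100 and 32500 TPM in Repo-positive cells, against 64500 and 60400 TPM in Repo-negative cells. By 18-22 h all 8 libraries lay between 7200 and 14900 TPM.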

How the data were processed

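Total RNA of fixed, sorted cells was ribodepleted, made into stranded libraries with a NuGEN Ovation Drosophila kit and sequenced on an Illumina HiSeq instrument. The submitters' processing notes name Salmon 0.8.1, RSEM 1.3.0 and DESeq2. The deposited files hold, for 34428 transcripts per library, the estimated counts and the TPM that the authors obtained with Salmon. Further deposited tables hold the authors' own comparisons (mean counts, fold changes and adjusted p-values) and were not used. Both measures were summed per gene with the Ensembl annotation of BDGP6. 305 transcripts, with 0.241 to 0.502% of reads, matched no gene. Total estimated reads per library ranged between 18120862 and 113452420, which sets the precision of the low genes.

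Rounded estimated counts of 17109 genes that passed filterByExpr were fitted with edgeR 4.0.16 (R 4.3.3, limma 3.58.1): 24 group means over 48 libraries, TMM scaling and the quasi-likelihood test, two-sided, with Benjamini-Hochberg adjustment over all genes. Fold changes are on this count scale and levels are in TPM. The spread was shared by all groups, with 24 residual degrees of freedom. The test was checked on simulated counts with known changes. The study calls the replicates biological duplicates without further detail, so p-values measure the spread between such libraries, which may be technical in part.

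The members and lists were chosen with earlier results of these data known. Genes given in every library were the 8 that stand for the roles (stg, CycE, dap, CycB, CycA, PCNA, Mcm5, E2f1), in each contrast up to 3 called members with the largest change in each direction and, where none was called, the member with the smallest p. Of the other pathway genes, 1 per contrast could be named. Other genes are named as picked after their values were seen.

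Replicate numbers matched a shared fly line across the positive and negative cells in a way that differs between replicates only in the 6-8 h Elav sort, where deviations of same-numbered libraries correlated at 0.473. Alternatives were DESeq2 1.42.0, median-of-ratios scaling, no filter, length-scaled counts, the libraries of a contrast alone, the receptor level as a covariate, the replicate number as a block and leaving out each library. No promoter or protein sequence was used here.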

Additional observations from a re-analysis of the deposited data

Results flagged for a closer look

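The difference between the columns with the neuroblast lineage and the neurons with glia at 6-8 h was larger in marker-positive than in marker-negative cells by a direct test of that difference in edgeR. It was called for 28 of 40 members, beside 11.6% of all genes, with RnrS at 2.46, PCNA at 2.25 and Mcm5 at 2.24 on the log2 scale. In positive cells alone their fold changes were 1.94, 1.74 and 1.72. The makeup of the negative cells differed between the sorts, and its part in the difference was not tested.

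At 18-22 h the Elav fold change differed from the Repo fold change by a direct test in 3 of 40 members. The share over all genes was larger, at 12.3%, so the count is not read as a result about the set. The differences on the log2 scale were -2.90 for stg, -2.14 for Cdk4 and -1.97 for CycD, each lower in the Elav sort. With 2 libraries per group, no library could be judged as standing apart within its group.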

How the results depend on the processing

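Among the 55 called values of the genes given in every library, no direction turned under any alternative run. The other called values were not followed in this way. The counts over all genes moved with the setting too, for instance to 1063 higher and 928 lower of 10190 by DESeq2 in the 8-10 h Elav against Repo test. The counts of called members moved by over 1.5 times as follows, and the cause was not tested. With DESeq2 there were 7 in the 4-6 h Pros sort, 5 in the 6-8 h Ind sort, 3 in the 6-8 h Pros sort and 12 in the 8-10 h Repo sort, 3 and 3 in the Elav and Repo tests of the late decline in positive against negative cells, and 1 (6-8 h) and 7 (8-10 h) in the Elav against Repo tests. With median-of-ratios scaling the same sorts gave 6, 4, 2 and 11, the Repo decline test 1, and the Elav against Repo tests 1 and 4. With the receptor level as covariate there were 2 in the 4-6 h Pros, 4 in the 6-8 h Ind, 10 in the 8-10 h Repo and 21 in the 18-22 h Repo sorts, and 2, 4 and 5 in the Elav against Repo tests at 6-8, 8-10 and 18-22 h. With the libraries of the contrast alone, and so fewer residual degrees of freedom, there were 6 (4-6 h Pros), 3 (6-8 h Ind), 10 (6-8 h Elav), 1 (8-10 h Elav), 0 (8-10 h Repo), 0 (18-22 h Elav), 0 and 0 (late decline, Elav-positive and Elav-negative) and 0 (18-22 h Elav against Repo). For the 18-22 h Elav sort and the late decline in Elav-positive and Elav-negative cells, that fit called 0 of all genes tested.

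In the 6-8 h Elav sort, whose pairing by line the replicate block follows, the block gave 21 calls in the fit of all libraries and 21 on the 4 libraries alone, an alternative chosen after seeing the data. Over all genes these fits called 1400 of 17109 and 913 of 15930 lower. Elsewhere the labels give same-numbered libraries only a number in common, with correlations of deviations between -0.618 and 0.764. The correlations were 0.764 in the 8-10 h Elav and 0.694 in the 8-10 h Repo sort, above that of the 6-8 h Elav sort. The main fit does not take up such a shared deviation. The block gave 7 calls in the 8-10 h Repo sort, 11 in the 8-10 h Elav sort and 14 in the 18-22 h Elav sort. Over all genes it called 491, 1519 and 1778 of 17109 lower there.

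Leaving out 1 library gave 0 higher and 1 lower call in the 4-6 h Ind sort, 0 higher calls in the 4-6 h Vnd, 6-8 h Vnd and 6-8 h Pros sorts, 0 to 1 in the 4-6 h Pros and 6-8 h Ind sorts, 10 to 13 (6-8 h Elav), 4 to 25 (6-8 h Repo), 1 to 14 (8-10 h Elav), 0 to 17 (8-10 h Repo), 2 to 27 (18-22 h Elav) and 0 to 9 (18-22 h Repo). It gave 17 to 25 for the columns and neuroblast lineage in positive cells, 0 in negative cells and 21 to 28 for the difference. For age it gave 0 in the Ind, Vnd and Pros cells and in Elav cells up to 10 h, 0 to 3 in Repo cells up to 10 h, and for the late decline 1 to 27 (Elav-positive), 11 to 29 (Repo-positive), 0 to 30 (Elav-negative), 18 to 31 (Repo-negative), 0 to 1 (Elav test) and 0 (Repo test). The Elav against Repo tests gave 0, 0 to 4 and 0 to 4. A lone library was assumed to vary like the other groups.

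The median over libraries of the members' median level was 75.4 TPM and became 93.9 TPM when TPM were rescaled to protein-coding genes. The median over libraries of the histone sum, given in TPM above, was 6750 in CPM, another unit. Scaling moved the median of all genes by 0.37 in the 6-8 h Repo sort, 0.18 in the 4-6 h Ind and Vnd sorts and 0.16 in both 8-10 h sorts. With 2 libraries per group few degrees of freedom stand behind each gene, and low genes such as Orc2 and twe followed the receptor level in several pairs of replicates.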
